A study of Homo sapiens with 6 samples.

Results

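The genes described here are 10 enzymes of phospholipid remodelling, 8 lysophospholipid acyltransferases and 2 phospholipases A2, measured by RNA sequencing in T84 cells. They were chosen by gene name as enzymes that act after ACSL4 in the same lipid pathway: LPCAT1, LPCAT2, LPCAT3, LPCAT4, LPGAT1, MBOAT1, MBOAT2, MBOAT7, PLA2G4A and PLA2G6. All 10 were found, each as 1 row, among 58735 genes of the table. T84 is an established line of human colorectal carcinoma cells. The shACSL4 group held 3 libraries from cells with a short hairpin RNA against ACSL4, whose genotype label reads as a knockdown, and the shControl group held 3 libraries from cells with a control hairpin, whose genotype label reads WT. The series text speaks of ACSL4 knockout. Group names here follow the sample titles. The cells of all 6 libraries share the T84 line, its medium with fetal bovine serum and antibiotics, and a hairpin. The sources used here give no hairpin sequence and no number of clones. Nothing in the labels tells whether replicate libraries are separate cultures, so the spread that p-values measure is that between these samples and may be technical.

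Membrane phospholipids are remodelled after they are made: a phospholipase A2 removes the fatty acid at the middle position of the glycerol backbone, and a lysophospholipid acyltransferase puts another in its place, taken from an acyl-CoA. ACSL4 supplies arachidonoyl-CoA and other polyunsaturated acyl-CoAs for that step, and polyunsaturated phosphatidylethanolamine is the lipid whose peroxidation drives ferroptosis. The acyltransferases belong to 2 protein families. LPCAT1, LPCAT2, LPCAT4 and LPGAT1 are related to the enzymes that acylate lysophosphatidate (the AGPAT family), whereas LPCAT3, MBOAT1, MBOAT2 and MBOAT7 are membrane-bound O-acyltransferases (the MBOAT family).

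Total counts ranged from 14740383 to 17189496 in shACSL4 libraries and from 15119283 to 17620630 in shControl libraries. ACSL4 itself was at 10.3, 9.12 and 11.1 CPM (counts relative to library size, with sizes scaled by TMM) in shACSL4 replicates 1, 2 and 3, against 75.5, 72.2 and 72.0 CPM in shControl replicates 1, 2 and 3, a log2 fold change of -2.85 (SE 0.10). The 13 colon epithelium markers summed to 9260 to 10605 CPM in shACSL4 libraries and 8147 to 9417 CPM in shControl libraries. The 8 leukocyte markers summed to 9.01 to 11.8 CPM in shACSL4 and 25.0 to 39.0 CPM in shControl, most of it LYZ, and CD3E was at 0 in every library. The 9 fibroblast and endothelial markers summed to 3.14 to 3.48 CPM in shACSL4 and 3.51 to 5.11 CPM in shControl, and the part of these lists in the results was not tested. In such bulk samples, fewer cells of a type and less RNA per cell cannot be told apart.

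Of the 10 members, 6 were higher in shACSL4 and 1 was lower, with 0.05 as the limit on the adjusted p of edgeR's quasi-likelihood fit (Benjamini-Hochberg, 15694 genes). MBOAT2 rose 4.79-fold, LPCAT3 1.41-fold, LPCAT1 1.38-fold, PLA2G6 1.30-fold, LPCAT2 1.28-fold and MBOAT1 1.26-fold. LPCAT4 fell, to 0.54 of its shControl level. MBOAT7 and LPGAT1 did not pass the test, and PLA2G4A, with 0 reads in every shACSL4 library, had too few counts to enter it. Among all genes tested, 47.2% were called, 24.0% higher and 23.1% lower, beside 7 of the 9 tested members. The median log2 fold change was 0.36 over the 9 tested members and 0.01 over all genes tested. The share of calls that were higher depended on the scaling: it was 50.9% of all calls here and 65.6% with library size alone, which moved the median of all genes to 0.13.

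**Figure D1:**
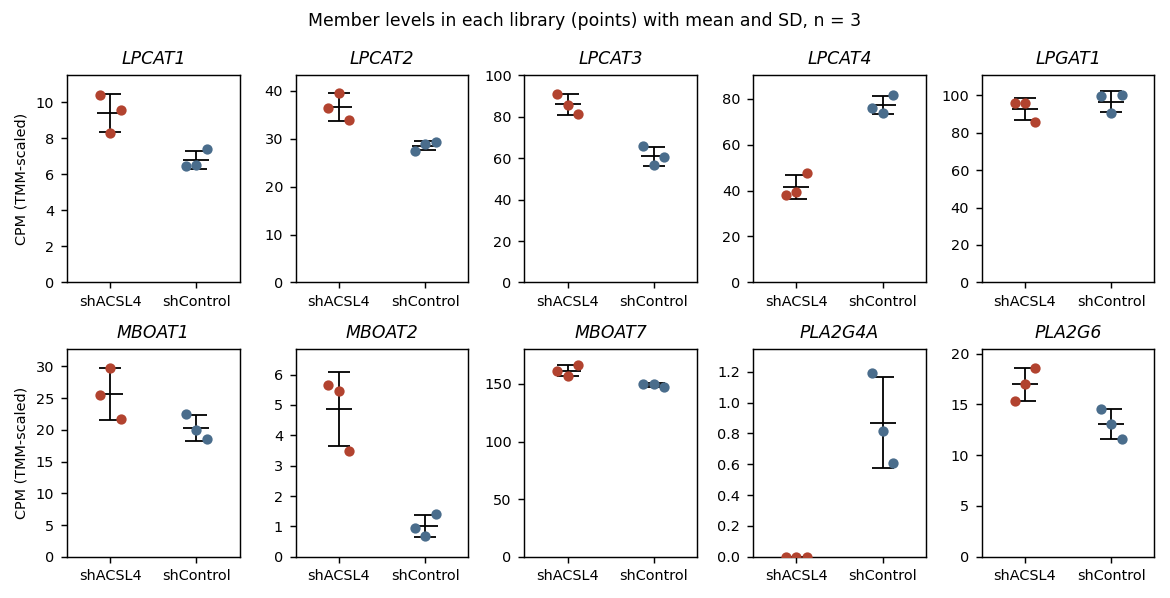
Levels of the 10 members in CPM in each library (points), with the mean and SD of 3 libraries (black), shACSL4 in red and shControl in blue, each panel on its own linear axis from 0. LPCAT4 lies at 38.1 to 47.5 CPM in shACSL4 and 73.8 to 81.5 CPM in shControl, PLA2G4A lies at 0 in all shACSL4 libraries, and the MBOAT1 and LPGAT1 groups overlap.

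The 4 members with the largest called changes or with a group at 0 were LPCAT3, LPCAT4, MBOAT2 and PLA2G4A. Their promoter windows, from 250 bases before to 50 bases after the RefSeq start (GRCh38.p14), are shown to set the sequence before each start beside the values that follow. Each is written 5′ to 3′ on the strand of its gene. Capitals mark the GC box GGGCGG and the CCAAT box CCAAT on either strand. The TATA box TATAAA was searched too and was in none of the 4.
LPCAT3 (chr12:7018427-7018726, minus strand): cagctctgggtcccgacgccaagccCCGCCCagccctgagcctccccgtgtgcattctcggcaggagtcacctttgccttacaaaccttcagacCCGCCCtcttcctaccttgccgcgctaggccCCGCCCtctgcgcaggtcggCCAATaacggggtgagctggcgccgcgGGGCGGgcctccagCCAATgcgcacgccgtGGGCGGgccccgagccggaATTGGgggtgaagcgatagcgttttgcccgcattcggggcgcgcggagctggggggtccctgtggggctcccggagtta
LPCAT4 (chr15:34367147-34367446, minus strand): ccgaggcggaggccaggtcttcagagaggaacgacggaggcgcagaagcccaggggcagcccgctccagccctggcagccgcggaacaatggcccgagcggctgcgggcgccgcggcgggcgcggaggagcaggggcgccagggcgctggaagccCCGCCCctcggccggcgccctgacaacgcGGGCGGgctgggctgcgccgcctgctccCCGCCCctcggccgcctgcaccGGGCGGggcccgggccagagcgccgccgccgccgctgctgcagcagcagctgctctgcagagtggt
MBOAT2 (chr2:9003635-9003934, minus strand): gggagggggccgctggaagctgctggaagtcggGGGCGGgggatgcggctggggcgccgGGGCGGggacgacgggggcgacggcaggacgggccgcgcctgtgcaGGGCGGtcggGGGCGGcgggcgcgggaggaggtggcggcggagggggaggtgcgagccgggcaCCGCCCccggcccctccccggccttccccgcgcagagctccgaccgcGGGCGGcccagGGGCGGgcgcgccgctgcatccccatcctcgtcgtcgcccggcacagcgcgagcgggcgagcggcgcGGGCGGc
PLA2G4A (chr1:186828699-186828998, plus strand): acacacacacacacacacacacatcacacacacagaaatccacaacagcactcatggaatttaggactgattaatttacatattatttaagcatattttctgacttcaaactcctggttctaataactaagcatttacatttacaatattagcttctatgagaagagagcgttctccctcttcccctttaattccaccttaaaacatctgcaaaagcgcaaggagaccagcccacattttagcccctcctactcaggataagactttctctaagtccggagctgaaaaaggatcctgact
The MBOAT2 window held 8 GC boxes, the LPCAT3 window 5 and the LPCAT4 window 4, with G and C at 83.7%, 70% and 79.3% of bases. The LPCAT3 window also held 3 CCAAT boxes. The PLA2G4A window held none of the 3 motifs, had 39.7% G and C and only 3 CpG dinucleotides, against 49 in the MBOAT2 window. Over 35116 windows of the same length, 45% held a GC box, 34.6% a CCAAT box and 11.5% a TATA box, and the median G and C content was 58.7%. LPCAT3 and MBOAT2 rose and LPCAT4 fell, so the GC-rich windows were not of 1 direction. RefSeq windows were given for 8 of the 10 members.

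LPCAT3 attaches arachidonate and linoleate to lysophosphatidylcholine and lysophosphatidylethanolamine, and is the main such enzyme of the small intestine and liver. The gene (ENSG00000111684, GRCh38 chromosome 12, 6976186 to 7018510, minus strand) was at 91.3, 85.6 and 81.3 CPM in shACSL4 replicates 1, 2 and 3, against 65.8, 56.7 and 60.5 CPM in shControl replicates 1, 2 and 3. All shACSL4 libraries lay above all shControl libraries. The means were 86.1 ± 5.00 CPM in shACSL4 and 61.0 ± 4.56 CPM in shControl (SD, n = 3), and the log2 fold change was 0.50 (SE 0.09, 95% interval 0.31 to 0.68, adjusted p = 0.00022 in edgeR). The span of LPCAT3 overlaps those of EMG1 and C1S on the other strand, and overlap of exons was not examined. Counting is not stated to use strand, so whether LPCAT3 holds reads of EMG1 and C1S is not known. Both were lower, EMG1 by a log2 fold change of -0.26 and C1S, at 15 to 22 counts in shACSL4 and 45 to 59 counts in shControl, by -1.59.

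LPCAT4, which acylates lysophosphatidylethanolamine and lysophosphatidylcholine and favours oleoyl-CoA, moved the other way. The gene (ENSG00000176454, chromosome 15, 34358618 to 34367278, minus strand) was at 38.1, 39.3 and 47.5 CPM in shACSL4 replicates 1, 2 and 3, against 76.1, 73.8 and 81.5 CPM in shControl replicates 1, 2 and 3. The highest shACSL4 library was well below the lowest shControl library. The means were 41.6 ± 5.13 CPM in shACSL4 and 77.1 ± 3.95 CPM in shControl (SD, n = 3), with a log2 fold change of -0.89 (SE 0.10, 95% interval -1.10 to -0.68, adjusted p = 1.54e-06 in edgeR). No other gene of the annotation overlaps LPCAT4. Per length, in the FPKM values the authors deposited, LPCAT3 stood at 2.43, 2.21 and 1.74 times the level of LPCAT4 in shACSL4 replicates 1, 2 and 3, against 0.878, 0.781 and 0.753 times in shControl replicates 1, 2 and 3. Their order was thus opposite in the groups, with LPCAT3 above LPCAT4 in each shACSL4 library and below it in each shControl library.

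LPCAT1, known for making the dipalmitoyl phosphatidylcholine of lung surfactant, was a low member in these cells. The gene (ENSG00000153395, chromosome 5, 1456480 to 1523977, minus strand) was at 10.4, 8.27 and 9.55 CPM in shACSL4 replicates 1, 2 and 3, against 6.49, 6.53 and 7.40 CPM in shControl replicates 1, 2 and 3. The groups did not overlap, and the log2 fold change was 0.47 (SE 0.16, 95% interval 0.13 to 0.80, adjusted p = 0.0224 in edgeR). The call was lost without shACSL4 replicate 1 (adjusted p = 0.0971) and without shControl replicate 1 (adjusted p = 0.0738). LPCAT2 acylates lysophosphatidylcholine and also acetylates lyso-PAF, the last step of platelet-activating factor synthesis in inflammatory cells. The gene (ENSG00000087253, chromosome 16, 55508998 to 55586670, plus strand) was at 36.4, 39.6 and 33.8 CPM in shACSL4 replicates 1, 2 and 3, against 27.4, 28.9 and 29.3 CPM in shControl replicates 1, 2 and 3. The shControl libraries were close together and all below the shACSL4 libraries. The log2 fold change was 0.36 (SE 0.10, 95% interval 0.16 to 0.57, adjusted p = 0.00583 in edgeR). Its span overlaps on its own strand that of AC007336.1, a long noncoding RNA of 5 to 14 counts in shACSL4 and 13 to 20 counts in shControl.

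MBOAT2, an acyltransferase of lysophosphatidylethanolamine that favours oleoyl-CoA and has been described as a suppressor of ferroptosis, had the largest change of the tested members. It is a low gene here: the row (ENSG00000143797, chromosome 2, 8852690 to 9003813, minus strand) had 88, 96 and 55 counts in shACSL4 replicates 1, 2 and 3, against 16, 11 and 21 counts in shControl replicates 1, 2 and 3. That is 5.64, 5.47 and 3.48 CPM in shACSL4 and 0.952, 0.690 and 1.41 CPM in shControl, in the same order of replicates. Even shACSL4 replicate 3, the lowest of its group, was above every shControl library. The means were 4.87 ± 1.2 CPM in shACSL4 and 1.02 ± 0.365 CPM in shControl (SD, n = 3), with a log2 fold change of 2.26 (SE 0.31, 95% interval 1.61 to 2.91, adjusted p = 1.63e-05 in edgeR). On the log2(FPKM + 1) scale, which compresses low values, the change was 0.47 and was called too. Of 40 tested coding genes around MBOAT2, up to 25 on each side, 30 had a log2 fold change above 0, and their median was 0.41. The part of that neighbourhood in the rise of MBOAT2 was not tested. Called genes with an absolute log2 fold change over 1 made up 11.9% of all genes tested, and MBOAT2 was 1 such gene among 9 tested members.

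MBOAT1 acylates lysophosphatidylserine and lysophosphatidylethanolamine, again with a preference for oleoyl-CoA. The gene (ENSG00000172197, chromosome 6, 20102145 to 20212399, minus strand) was at 25.5, 29.8 and 21.6 CPM in shACSL4 replicates 1, 2 and 3, against 22.5, 19.96 and 18.5 CPM in shControl replicates 1, 2 and 3. The groups overlapped, since shACSL4 replicate 3 lay below shControl replicate 1. The log2 fold change was 0.34 (SE 0.13, 95% interval 0.07 to 0.60, adjusted p = 0.0386 in edgeR), and it was 0.22 (adjusted p = 0.226) without shACSL4 replicate 2. The call was also lost without shACSL4 replicate 1 (adjusted p = 0.0789), without shControl replicate 2 (adjusted p = 0.0749) and without shControl replicate 3 (adjusted p = 0.154), and DESeq2 did not make it (adjusted p = 0.0556).

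MBOAT7, which places arachidonate on lysophosphatidylinositol, was the highest member per length in both groups. The gene (ENSG00000125505, chromosome 19, 54173412 to 54189882, minus strand) was at 161, 157 and 166 CPM in shACSL4 replicates 1, 2 and 3, against 150.0, 150.0 and 147 CPM in shControl replicates 1, 2 and 3. Every shACSL4 library was above every shControl library, by a small margin. The log2 fold change was 0.12 (SE 0.08, 95% interval -0.05 to 0.29, adjusted p = 0.25 in edgeR) and was 0.24 and called (adjusted p = 0.0212) with library size alone as scaling. Of 50 neighbouring coding genes, 37 had a log2 fold change above 0, with a median of 0.16, and their part was not tested. LPGAT1, which acylates lysophosphatidylglycerol and lysophosphatidylethanolamine, lies on chromosome 1 (ENSG00000123684, 211743457 to 211830772, minus strand). It was at 95.7, 95.9 and 85.8 CPM in shACSL4 replicates 1, 2 and 3, against 99.3, 90.2 and 99.9 CPM in shControl replicates 1, 2 and 3. The groups overlapped, and the log2 fold change was -0.06 (SE 0.09, 95% interval -0.24 to 0.12, adjusted p = 0.589 in edgeR), or 0.055 with library size alone. Its interval leaves out changes as large as that of LPCAT3 or LPCAT4.

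PLA2G4A, the calcium-dependent cytosolic phospholipase A2 that releases arachidonate for prostaglandin and leukotriene synthesis, was scarcely detected. The gene (ENSG00000116711, chromosome 1, 186828953 to 186988981, plus strand) had 0, 0 and 0 counts in shACSL4 replicates 1, 2 and 3, against 20, 13 and 9 counts in shControl replicates 1, 2 and 3. All 42 reads were thus in shControl libraries, where the level was 1.19, 0.816 and 0.605 CPM. A count of 0 allows up to 3 counts, so over the group PLA2G4A was at most 0.0613 CPM in shACSL4. That is at least 14.4-fold lower than the observed shControl level. This bound covers counting error in shACSL4 only, and takes the 42 shControl reads as exact. The gene did not pass the filter on low counts and has no adjusted p here. The authors' deposited table gives a log2 fold change of -6.29 with an adjusted p of 6.18e-05 for it, a fitted value that is no bound. With no filter on low counts the adjusted p was 2.5e-07 in edgeR.

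PLA2G6, the calcium-independent phospholipase A2 known for housekeeping turnover of membrane phospholipids, changed in the other direction. The gene (ENSG00000184381, chromosome 22, 38111495 to 38205690, minus strand) was at 15.3, 17.0 and 18.6 CPM in shACSL4 replicates 1, 2 and 3, against 14.5, 13.1 and 11.6 CPM in shControl replicates 1, 2 and 3. The groups did not overlap, though shACSL4 replicate 1 was close to shControl replicate 1. The means were 17.0 ± 1.64 CPM in shACSL4 and 13.0 ± 1.48 CPM in shControl (SD, n = 3), with a log2 fold change of 0.38 (SE 0.13, 95% interval 0.10 to 0.65, adjusted p = 0.0255 in edgeR). The call was lost without shACSL4 replicate 2 (adjusted p = 0.0609), without shACSL4 replicate 3 (adjusted p = 0.0886) and without shControl replicate 3 (adjusted p = 0.123). The span of PLA2G6 overlaps those of AL022322.2 and MAFF on the other strand. AL022322.2, an antisense gene, had 12 to 15 counts in shACSL4 and 5 to 15 counts in shControl. It was not called (log2 fold change 0.37). MAFF was at 28.1 to 35.4 CPM in shACSL4 and 35.2 to 38.4 CPM in shControl. Overlap of exons was not examined, so whether PLA2G6 holds reads of AL022322.2 or MAFF is not known.

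**Figure D2:**
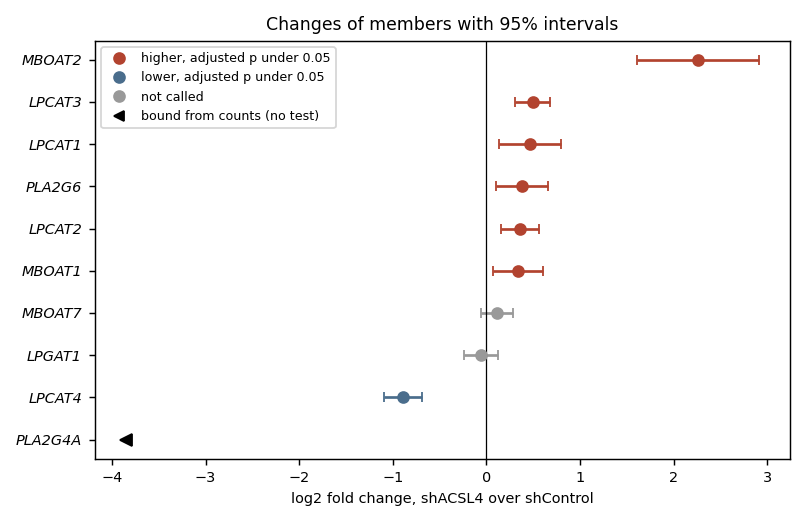
Log2 fold changes of the members (shACSL4 over shControl) with 95% intervals from edgeR's quasi-likelihood fit, coloured by the call. The black triangle is the bound for PLA2G4A at -3.85, from 0 counts in shACSL4, and MBOAT2 at 2.26 has the widest interval, from 1.61 to 2.91.

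The authors' deposited table gave the same direction for all 10 members. Its adjusted p was above 0.05 for LPCAT1 (0.0751), PLA2G6 (0.0751) and MBOAT1 (0.093), which are called here. Its log2 fold changes were 0.48 for LPCAT3, -0.90 for LPCAT4 and 2.25 for MBOAT2. In 7 of the 9 tested members all shACSL4 libraries lay on 1 side of all shControl libraries, against 55.1% of all genes tested, and PLA2G4A, untested, did so as well.

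Per length, the members summed to 90.6, 92.0 and 88.0 FPKM in shACSL4 replicates 1, 2 and 3, against 89.0, 84.2 and 85.1 FPKM in shControl replicates 1, 2 and 3. The sums overlapped, so the summed level of these enzymes was not separated between the groups, while its makeup was. The 4 MBOAT family genes made up 70.1%, 69.7% and 68.2% of the sum in shACSL4 replicates 1, 2 and 3, against 61.5%, 61.2% and 59.1% in shControl replicates 1, 2 and 3. Every shACSL4 library thus had a larger MBOAT family share than any shControl library. LPCAT3 held 19.9% ± 0.926 of the sum in shACSL4 and 14.9% ± 0.677 in shControl, and LPCAT4 held 9.48% ± 1.37 in shACSL4 and 18.6% ± 0.991 in shControl (SD, n = 3). Together LPCAT3 and LPCAT4 were at 26.8, 26.0 and 26.7 FPKM in shACSL4 and 29.7, 27.4 and 29.3 FPKM in shControl.

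**Figure D3:**
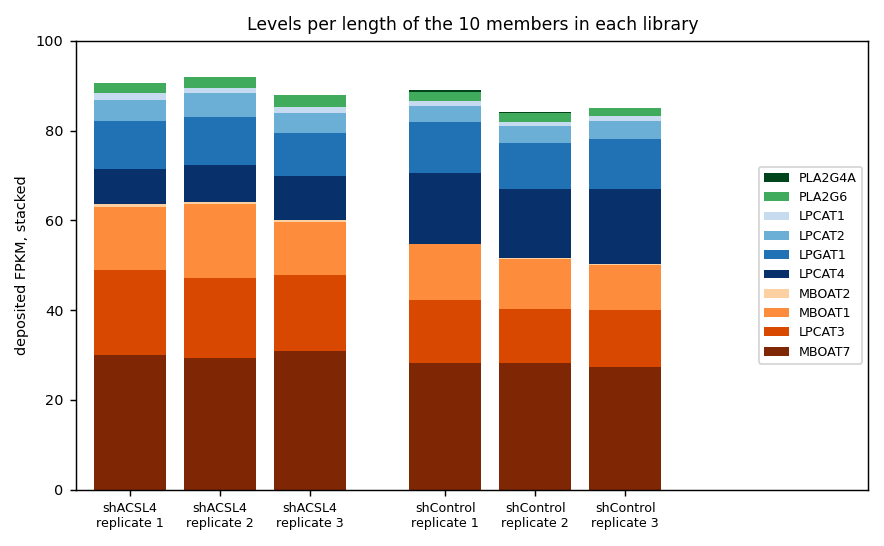
Deposited FPKM of the 10 members stacked for each library, MBOAT family in brown and orange, AGPAT family in blue, phospholipases A2 in green. The bars end between 88.0 and 92.0 FPKM in shACSL4 and between 84.2 and 89.0 FPKM in shControl, and the LPCAT4 band is thinner in shACSL4.

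In order of level per length, shACSL4 libraries had MBOAT7 (30.0 FPKM), LPCAT3 (17.9), MBOAT1 (14.1), LPGAT1 (10.3), LPCAT4 (8.54), LPCAT2 (4.85), PLA2G6 (2.47), LPCAT1 (1.42), MBOAT2 (0.544) and PLA2G4A (listed at 0), as mean FPKM. The ranges of LPGAT1 and LPCAT4 overlapped there, and no other neighbours in that order did. In shControl libraries the order was MBOAT7 (28.0 FPKM), LPCAT4 (16.0), LPCAT3 (12.8), MBOAT1 (11.3), LPGAT1 (10.9), LPCAT2 (3.81), PLA2G6 (1.92), LPCAT1 (1.04), PLA2G4A (0.301) and MBOAT2 (0.115). The ranges of LPCAT3 and MBOAT1, and of MBOAT1 and LPGAT1, overlapped there. LPCAT4 thus ranked 5 in shACSL4 and 2 in shControl. With the longest coding transcript as length, an alternative chosen after seeing the data, it ranked 3 in shACSL4 and 2 in shControl, and MBOAT1 ranked 4 in shACSL4 and 5 in shControl. FPKM depends on the length assigned to a gene, and how the deposited length was derived was not examined. The length used for MBOAT1 is 1794 bases, that of its longest coding transcript, whereas the length used for MBOAT2 is 8798 bases.

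Of genes outside the list, those closest in pattern to MBOAT2 over the 6 libraries were NCR3LG1, JRK and CREB3L1, with Pearson correlations of log2 CPM of 0.999, 0.997 and 0.997, among 10915 coding genes that average 50 counts or more. Closest to LPCAT4 were FUT11 (0.998), PROCR (0.997) and FAM177A1 (0.997). The 6 points share their libraries and the split into groups. The log2 fold changes were 0.82 for NCR3LG1, 0.81 for JRK and 1.34 for CREB3L1, and -1.35 for FUT11, -0.72 for PROCR and -0.83 for FAM177A1.

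Around the members, a list of enzymes that build phosphatidate, the precursor that remodelling later acts on, and of genes grouped with them moved in both directions. Of 9 tested genes of 11 listed, 2 rose and 2 fell, with a median log2 fold change of 0.00, where 24.0% of all genes rose and 23.1% fell. GPAT3, a glycerol-3-phosphate acyltransferase of the endoplasmic reticulum, was at 21.3 ± 3.13 CPM in shACSL4 and 50.3 ± 3.98 CPM in shControl (log2 fold change -1.24, SE 0.11, SD, n = 3). LCLAT1, which acylates lysocardiolipin and lysophosphatidylinositol, rose by 0.67 (SE 0.11), and ABHD5, known as the activator of the triglyceride lipase ATGL, rose by 0.61 (SE 0.11). AGPAT2 fell as well (-0.49). The called rises were thus LCLAT1 and ABHD5 alone, and no tested gene with a GPAT or AGPAT symbol was called higher in this fit.

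Among genes listed as lysophospholipases and lysophospholipid carriers, 6 of 11 tested genes (14 listed) fell and none rose. The median log2 fold change of the list was -0.42, where 23.1% of all genes tested fell and 24.0% rose. GDE1, a glycerophosphodiester phosphodiesterase, was at 117 ± 6.62 CPM in shACSL4 and 181 ± 7.42 CPM in shControl (log2 fold change -0.63, SE 0.08, SD, n = 3). ABHD4, a lysophospholipase of N-acyl phosphatidylethanolamine metabolism, changed by -0.66 and LYPLA1, an acyl-protein thioesterase first described as a lysophospholipase, by -0.54, at adjusted p of 4.59e-05 and 5.16e-05 in edgeR. ABHD12, a lysophosphatidylserine lipase, changed by -0.42 and ABHD6 by -0.57, both called. The carrier MFSD2A was not called (log2 fold change 0.11, SE 0.11).

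Of other phospholipases A and platelet-activating factor hydrolases, 6 of 23 tested genes (37 listed) rose and 8 fell, with a median of -0.05, where 24.0% of all genes tested rose, a share near that of the list, and 23.1% fell. The falls include PLA2G7, which passed the filter on low counts through its shControl counts, so its call gives no separate support. The 8 falls became 4 without shControl replicate 1, and 4 with library size alone. PAFAH1B3, a catalytic subunit of an intracellular platelet-activating factor hydrolase, was at 18.7 ± 3.80 CPM in shACSL4 and 8.37 ± 0.854 CPM in shControl (log2 fold change 1.16, SE 0.15, SD, n = 3). PNPLA3, a lipid droplet hydrolase, changed by -1.66 (SE 0.23) and PLA2G15, the lysosomal phospholipase A2, by -0.76 (SE 0.12). PLAAT3, listed in the table under its older name PLA2G16, was at 48.1 ± 5.61 CPM in shACSL4 and 49.6 ± 5.19 CPM in shControl (SD, n = 3) and was not called.

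In phospholipid head-group synthesis, 3 of 23 tested genes (24 listed) rose and 8 fell, with a median of -0.14, beside 24.0% and 23.1% of all genes tested. The falls include PCYT1B, with 11 counts over shACSL4 and 194 counts over shControl libraries. PCYT1B passed the filter on low counts through its shControl counts, so its call gives no separate support. CHPT1, which makes phosphatidylcholine in its last step, was at 111 ± 9.20 CPM in shACSL4 and 185 ± 16.9 CPM in shControl (log2 fold change -0.74, SE 0.09, SD, n = 3). The phosphatidate phosphatases LPIN1 and LPIN2 moved apart, LPIN1 by 0.52 (SE 0.10) and LPIN2 by -0.64 (SE 0.10). Of other acyltransferases of membrane lipids, 1 of 10 tested genes (14 listed) was called, the Wnt palmitoleoyltransferase PORCN, which like MBOAT2 belongs to the MBOAT family and changed by 1.53 (SE 0.16). The median of that list was 0.05, and 47.2% of all genes tested were called. TMEM164, an acyltransferase of ether phospholipids, was at 116 ± 7.28 CPM in shACSL4 and 119 ± 4.49 CPM in shControl (SD, n = 3) and was not called.

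Acyl-CoA thioesterases and acyl-CoA binding proteins share the acyl-CoA pool with the acyltransferases, and 5 of 15 tested genes (17 listed) fell and none rose, with a median of -0.24, beside 23.1% lower and 24.0% higher over all genes tested. The largest fall was that of THEM5 (log2 fold change -1.45, SE 0.53), at 2 to 14 counts in shACSL4 and 12 to 26 counts in shControl. THEM5, counted among the 5 falls, passed the filter on low counts through its shControl counts, so its call gives no separate support. ACOT7 changed by -0.27. ACBD5, a peroxisomal acyl-CoA binding protein, changed by -0.35 (SE 0.08) and DBI, the main cytosolic acyl-CoA binding protein, by -0.37 (SE 0.11). The DBI call was lost in edgeR without shACSL4 replicate 2 (adjusted p = 0.0803), with library size alone (0.104) and against a fold of 1.2 (0.15). ACBD3, a Golgi protein, changed by -0.29, and its call was lost in 6 of 16 alternatives. In edgeR its adjusted p was 0.0503 without shACSL4 replicate 1, 0.139 without shACSL4 replicate 3 (where the change was -0.17), 0.0585 without shControl replicate 1 and 0.0638 without shControl replicate 3. It was 0.169 with library size alone (change -0.17) and 0.37 against a fold of 1.2. The 5 falls became 2 without shACSL4 replicate 1, shACSL4 replicate 3 or shControl replicate 1, 3 without shACSL4 replicate 2 or shControl replicate 2, and 1 with library size alone.

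**Figure D4:**
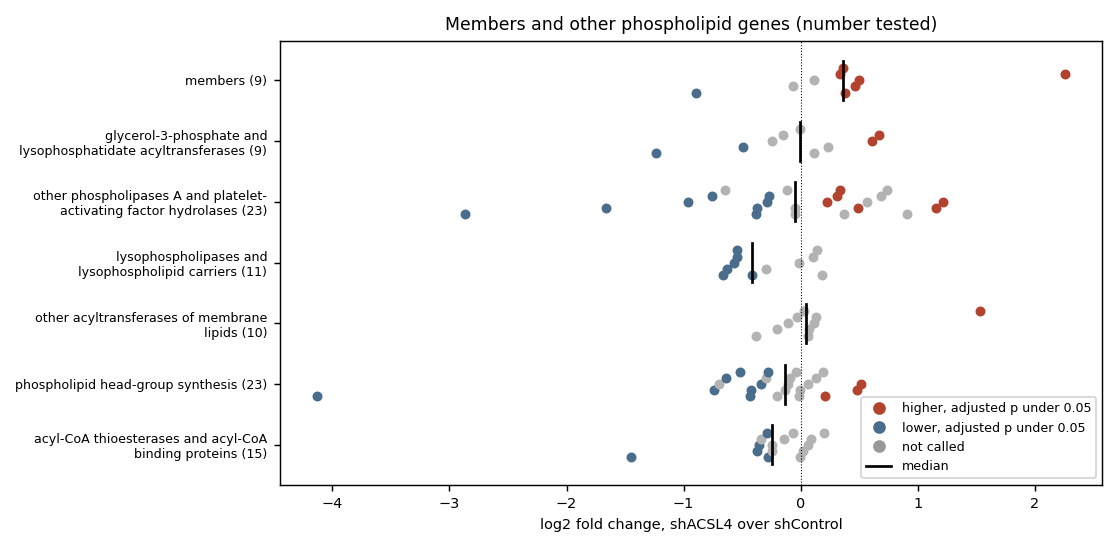
Log2 fold changes (shACSL4 over shControl) of the tested members and of the tested genes of 6 other phospholipid lists, coloured by the call, with the median of each list as a black line and the number tested in parentheses. The members' median lies at 0.36 and that of lysophospholipases and carriers at -0.42. The point at -4.13 is PCYT1B, which had 11 counts over shACSL4 and 194 counts over shControl libraries. It passed the filter on low counts through its shControl counts.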

How the data were processed

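RNA of 3 shACSL4 and 3 shControl libraries was sequenced after removal of ribosomal RNA and fragmentation, per the labels' protocols. Per the submitters' processing notes, which list no versions, the tools were CASAVA and HISAT2 and the build GRCh38 (hg38). How reads were counted, and whether by strand, is not given in the sources used here. The authors deposited raw read counts per gene and FPKM values, per the file headers, and FPKM is relative to the deposited gene length and to a library size in proportion to median-of-ratios size factors. The deposited group mean signal equals the mean of counts over those size factors, as recomputed. The authors also deposited log2 fold changes and p-values for 30841 genes. The control columns carry the prefix NC and were taken as shControl by number, because NC is the only other group. All 58735 gene identifiers were in GENCODE release 29, which gave transcripts and overlaps. Promoters are from RefSeq.

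Counts were filtered with filterByExpr, scaled by TMM and compared with edgeR's quasi-likelihood test without covariates (edgeR 4.0.16, limma 3.58.1, DESeq2 1.42.0, R 4.3.3), and adjusted p-values are Benjamini-Hochberg values over 15694 genes. Fold changes are shACSL4 over shControl. At this depth 3 counts correspond to 0.171 to 0.202 CPM, and such limits cover counting error only, since reads lacking molecular identifiers may repeat a molecule. The members and lists were chosen with earlier results of these data known. Named genes were the members, ACSL4, up to 3 called genes per list with the smallest adjusted p and 50 or more counts on average, and the 3 genes most alike in pattern to the member with the smallest adjusted p in each direction. Other genes named were chosen after their values were seen.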

Additional observations from a re-analysis of the deposited data

How the results depend on the processing

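Over 16 alternatives LPCAT3 and LPCAT4 kept their calls and directions in all, and MBOAT2 in the 15 that tested it, since its mean is under 50 counts. The rises of LPCAT1, LPCAT2, MBOAT1 and PLA2G6 were smaller and depended more on settings. Against a fold of 1.2, calls over all genes were 2441 higher and 2209 lower and 2 members were higher, with adjusted p of 0.106 for LPCAT1 (0.47), 0.148 for LPCAT2 (0.36), 0.26 for MBOAT1 (0.34) and 0.182 for PLA2G6 (0.38). On log2(FPKM + 0.1) 3 members were higher and LPCAT1 (0.42), MBOAT1 (0.31) and PLA2G6 (0.35) were not called; on log2(FPKM + 1) MBOAT1 (0.29) and PLA2G6 (0.25) were not, and the members' median was 0.25. DESeq2 gave 0.33 for MBOAT1, not called. With library size alone the members' median was 0.48, MBOAT7 (0.24) was called and LPGAT1 turned to 0.055. In that setting the phosphatidate list had 4 rises, other phospholipases 4 falls, and acyl-CoA genes 1 rise and 1 fall. With no filter PLA2G4A was called at a fitted -6.83, so 2 members were lower, and lysophospholipases had 1 rise. Against a fold of 1.2 other phospholipases had 3 rises and 3 falls and acyl-CoA genes 0 falls, and genes of at least 50 counts left 3 acyl-CoA falls. With the longest coding transcript as length, chosen after seeing the data, the share of the summed level differed (shACSL4 minus shControl) by 6.18 percentage points for LPCAT3, 0.304 for MBOAT2 and -0.195 for PLA2G4A, in the same directions as with the deposited length.

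Leaving out 1 library at a time, 4 to 5 members were higher and 1 to 2 lower, PLA2G4A being tested in 4 of these fits at -7.06 to -6.80. The members' median was 0.26 to 0.41, with LPCAT1 at 0.39 to 0.55, MBOAT1 at 0.22 to 0.45 and PLA2G6 at 0.29 to 0.46. Other phospholipases had 4 to 6 falls and acyl-CoA genes 2 to 4. The replicate numbers share only a number: deviations of same-numbered libraries correlated at 0.09, -0.02 and 0.01, and not every library correlated best with its own number. The replicate block gave 3769 higher and 3645 lower genes and 6 higher and 1 lower members. Depth limits PLA2G4A and MBOAT2 most.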

Other observations

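Below the filter on low counts, some relatives of the members had few reads that lay mostly in 1 group. They were picked after their values were seen and have no test with the filter in place. With no filter, edgeR's quasi-likelihood test gave adjusted p of 0.00322 for PLA2G4C, 0.0199 for TMEM86A and 0.0323 for AGPAT4, all higher in shACSL4. That fit called 3737 genes higher and 3722 lower among 34061. Since these genes were picked on the same counts, their adjusted p values give no separate support. PLA2G4C, a calcium-independent relative of PLA2G4A, had 11, 10 and 13 counts in shACSL4 replicates 1, 2 and 3, against 1, 1 and 2 counts in shControl replicates 1, 2 and 3. TMEM86A, a lysoplasmalogenase relative, had 9, 6 and 7 counts in shACSL4 replicates 1, 2 and 3, against 2, 0 and 0 counts in shControl replicates 1, 2 and 3. AGPAT4 had 30 counts over shACSL4 and 6 counts over shControl libraries. In the other direction, PLA2G7, the secreted platelet-activating factor hydrolase, had 26 counts over shACSL4 and 186 counts over shControl libraries. It passed the filter through its shControl counts and was called lower (log2 fold change -2.87, SE 0.37). PLA2G7 too was picked after its values were seen, so its call gives no separate support.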
